A study of Mus musculus with 11 samples.

Results

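Small nucleolar RNAs (snoRNAs) are short RNAs that guide chemical changes on ribosomal RNA, and most of them are cut out of the introns of longer transcripts called host genes. Some hosts encode proteins, whereas others are spliced into RNAs without a long reading frame, known as small nucleolar RNA host genes (Snhg) and growth arrest-specific 5 (Gas5). Box C/D snoRNAs guide 2′-O-methylation and box H/ACA snoRNAs guide the conversion of uridine into pseudouridine. Many noncoding hosts begin, like messenger RNAs of ribosomal proteins, with a terminal oligopyrimidine (TOP) tract, and their spliced RNA is known as a substrate of nonsense-mediated decay, which couples its level to translation and cell growth.

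The 9 host genes described here, Gas5, Snhg1, Snhg3, Snhg4, Snhg5, Snhg6, Snhg8, Snhg12 and Snhg15, were chosen by name among 55421 gene rows of a count table of mouse heart RNA. Each of the 9 symbols was found as 1 row. The mice, 11 in all, were females of the strain C57BL/6J aged 8 weeks, and poly(A) RNA of their hearts was read by RNA sequencing. The DMSO group held 4 mice, in which the LAD coronary artery had been ligated 3 days earlier to cause a myocardial infarction (MI), and which were given the solvent DMSO. The A10i group held 4 mice with the same ligation that received GI254023X, an inhibitor of the protease ADAM10 (A10i, 100 mg/kg). The sham group held 3 mice without ligation that also received DMSO, so the solvent was common to the controls. Tissue of infarcted hearts is labelled as infarct border zone, and the study also speaks of the infarct itself, whereas sham hearts gave healthy tissue. Infarction and the region sampled thus cannot be told apart, and both tissues are mixtures of cell types. In such bulk samples, fewer cells of a type and less RNA per cell cannot be told apart. Which cells carried the host transcripts was not measured, and the question of the comparisons was how MI, and A10i treatment after MI, changed the transcriptome.

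The hosts with box C/D snoRNAs lay at chr1:161034422-161038539 (Gas5, plus strand), chr19:8723475-8726443 (Snhg1, plus strand), chr9:88521050-88522929 (Snhg5, minus strand) and chr1:9941959-9944118 (Snhg6, minus strand), in the mm10 (GRCm38) positions of the deposited table. The hosts of box H/ACA snoRNAs lay at chr4:132348014-132353686 (Snhg3, minus strand), chr18:35553371-35558316 (Snhg4, plus strand), chr3:123507552-123508404 (Snhg8, minus strand) and chr11:6525591-6528779 (Snhg15, minus strand). Snhg12, at chr4:132308623-132311024 on the plus strand, carried both kinds and lay 36989 bases from Snhg3. The GENCODE M21 annotation placed 30 snoRNA loci inside these genes on the same strand, 9 in Gas5, 8 in Snhg1, 4 in Snhg12, 2 each in Snhg3, Snhg4 and Snhg5, and 1 each in Snhg6, Snhg8 and Snhg15. By sequence, 18 of the 30 held a C box start (TGATG) in their first 20 bases and a D box (CTGA) in their last 15, and 6 of the others ended in ACA followed by 3 bases. The remaining 6, among them both loci in Snhg4, met neither definition, so the class of Snhg4 rests on general knowledge of its snoRNAs.

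The annotated exons of the hosts often covered the snoRNAs themselves. Exons of any isoform took 100% of the span of Snhg1, Snhg8 and Snhg12, between 83.2% and 94.3% in Gas5, Snhg4, Snhg5 and Snhg15, 53.1% in Snhg6 and 17.4% in Snhg3. Of 82 annotated isoforms of the 9 genes, 43 were of the retained intron type, 20 of them in Gas5 and 14 in Snhg1. A read from an unspliced intron of most of these hosts could therefore be counted for the host, so its count can hold spliced and unspliced RNA together. Where such a read also overlapped a snoRNA, which has a row of its own, its assignment is not given in the sources used here.

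**Figure D1:**
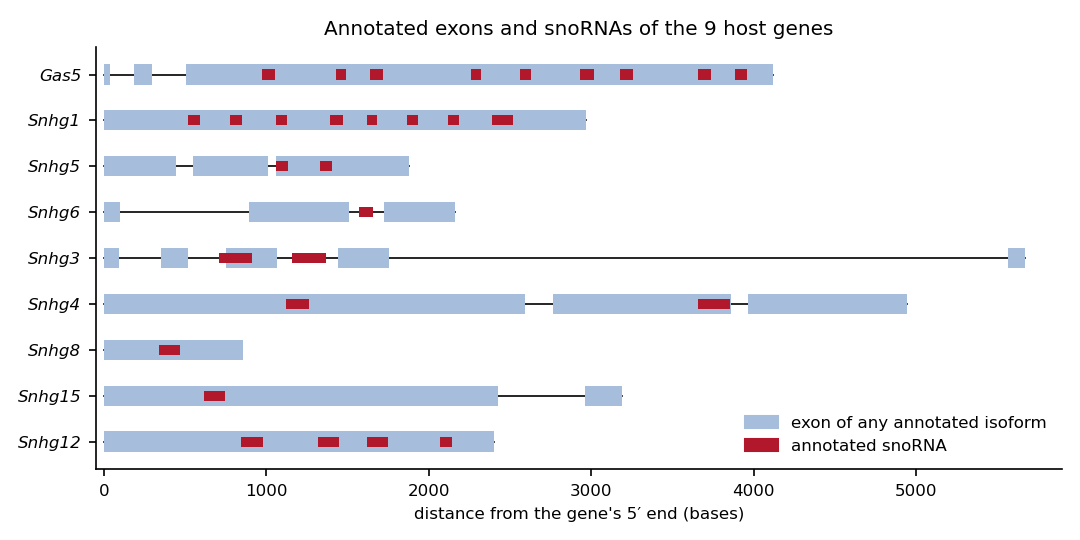
Exons of any annotated isoform (blue) and annotated snoRNAs (red) of the 9 host genes, drawn by distance from each gene's 5′ end in bases. In Snhg1, Snhg8 and Snhg12 the exons cover the whole gene and every snoRNA, and 28 of the 30 snoRNA loci overlap an exon of their host.

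The snoRNAs below show what the hosts carry. They are GENCODE M21 transcript sequences in DNA letters, with the C box and the last D box of box C/D snoRNAs, or the ACA of box H/ACA snoRNAs, in capitals. Snord47 came from Gas5 and Snord50a from Snhg5. Snord87 came from Snhg6, Snora24 from Snhg8, and Snora73b, which takes part in the cleavage of precursor ribosomal RNA, from Snhg3.
Snord47: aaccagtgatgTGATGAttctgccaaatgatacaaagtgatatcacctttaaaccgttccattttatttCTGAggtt
Snord50a: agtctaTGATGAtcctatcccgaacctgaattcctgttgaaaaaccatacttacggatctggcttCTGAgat
Snord87: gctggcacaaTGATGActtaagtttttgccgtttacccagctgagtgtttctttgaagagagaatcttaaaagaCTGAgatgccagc
Snora24: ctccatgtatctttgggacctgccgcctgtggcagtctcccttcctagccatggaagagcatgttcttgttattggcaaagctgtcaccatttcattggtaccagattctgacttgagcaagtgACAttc
Snora73b: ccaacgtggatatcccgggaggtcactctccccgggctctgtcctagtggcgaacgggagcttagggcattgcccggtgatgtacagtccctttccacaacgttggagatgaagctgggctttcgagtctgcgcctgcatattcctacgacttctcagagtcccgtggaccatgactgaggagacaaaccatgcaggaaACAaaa

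RefSeq promoter windows (GRCm38.p6, 250 bases before and 50 after an annotated start) were found for 7 of the 9 hosts, with 2 starts for Gas5. Snhg4 and Snhg6 had none. The lines below give 20 bases before the start and the 30 bases from it on, at the start of each gene that held a pyrimidine tract, written as a C followed by at least 4 bases that are C or T, beginning within 10 bases of the start on the transcribed strand. The tract is in capitals.
Gas5, chr1:161035146-161035195, plus strand: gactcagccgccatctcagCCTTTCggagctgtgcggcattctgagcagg
Snhg8, chr3:123508307-123508356, minus strand: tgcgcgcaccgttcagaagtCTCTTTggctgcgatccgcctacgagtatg
Snhg12, chr4:132308658-132308707, plus strand: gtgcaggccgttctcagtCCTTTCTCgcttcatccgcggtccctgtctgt
Snhg3, chr4:132353657-132353706, minus strand: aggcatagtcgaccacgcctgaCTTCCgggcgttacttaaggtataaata
Snhg5, chr9:88522868-88522917, minus strand: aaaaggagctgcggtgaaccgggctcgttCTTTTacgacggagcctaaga
A tract was found in 5 of 8 windows of the hosts, in 30.7% of all 32851 windows and in 56.2% of 73 windows of ribosomal protein genes. In Gas5, Snhg3, Snhg8 and Snhg12 it began at or within 2 bases of the start, whereas in Snhg5 it began 9 bases downstream. The windows of Snhg1 and Snhg15 and the other Gas5 start held no such tract. TATAAA between 40 and 15 bases before the start stood in 2 of the 8 windows, those of Snhg5 and Snhg8, against 1.99% of all windows. CACGTG, which reads the same on both strands, stood in the 1 window of Snhg15, against 7.15% of all. These matches describe the letters near annotated starts only.

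Total counts per library lay between 21702623 and 29511768. Counts were scaled with the trimmed mean of M-values (TMM) to a common library size, and the result is called the normalized count. All 9 hosts passed the filter on low counts in each comparison. The lowest count of any host in any library was 28 (Snhg15, sham) and the highest 1298 (Gas5, DMSO). Per kilobase of annotated exon, the order of the median normalized count over the 11 mice was Gas5 (263), Snhg8 (259), Snhg6 (182), Snhg3 (121), Snhg1 and Snhg5 (both 89.8), Snhg12 (70.5), Snhg4 (27.6) and Snhg15 (18.6). The ranges of neighbours in this order overlapped, as for Gas5 (189 to 313 per kilobase) and Snhg8 (199 to 325), with 1 exception. Snhg12 (49.8 to 99.4) lay above Snhg4 (17.6 to 42.2) in every mouse. As exon length includes retained introns, these levels per length are lower than those of the spliced RNA would be where introns are rarely kept.

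**Figure D2:**
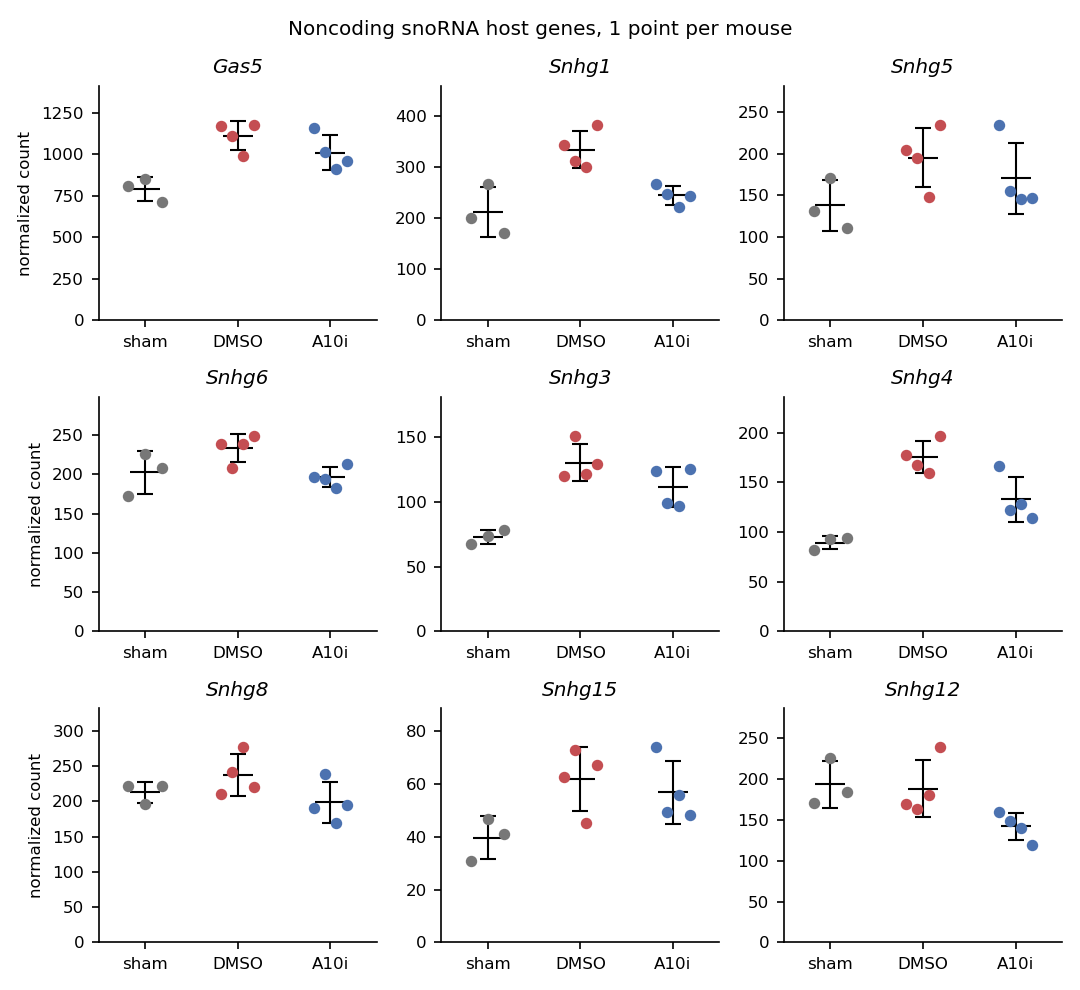
Normalized counts of the 9 hosts, 1 point per mouse, with the group mean and SD (bars) for sham (n = 3), DMSO (n = 4) and A10i (n = 4). Gas5, Snhg1, Snhg3 and Snhg4 show no overlap between sham and DMSO mice, and Snhg1 and Snhg12 none between DMSO and A10i mice.

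MI in DMSO mice was accompanied by higher levels of Gas5, Snhg3 and Snhg4. With edgeR's quasi-likelihood test and an adjusted p under 0.01, 3 of the 9 hosts were higher in DMSO than in sham mice and 0 were lower, beside 12.9% of all 17117 genes tested that were higher. The median log2 fold change of the hosts was 0.49, against 0.00 over all genes tested. The groups did not overlap, with DMSO higher, for 4 of the 9 hosts and for 25.1% of all genes.

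Snhg4, the host of box H/ACA snoRNAs on chromosome 18, changed most. Its normalized counts were 81.9, 92.7 and 93.8 in the sham mice and 178, 167, 160 and 197 in the DMSO mice. Every DMSO mouse lay above every sham mouse. The mean rose from 89.5 ± 6.57 (SD, n = 3) to 175 ± 16.02 (SD, n = 4), a log2 fold change of 0.96 ± 0.14 (SE, edgeR adjusted p = 0.000929). It was the host whose call was kept without any 1 library, with an adjusted p of at most 0.00811.

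Snhg3, which carries both copies of Snora73, had 67.5, 73.6 and 78.4 normalized counts in sham and 120, 151, 122 and 129.5 in DMSO mice, again without overlap. Its log2 fold change was 0.83 ± 0.16 (SE, edgeR adjusted p = 0.00316). Gas5, a transcript known to accumulate in growth-arrested cells, was the host with the highest counts, without regard to length. It had 806, 853 and 711 normalized counts in sham and 1169, 1112, 988 and 1175 in DMSO mice. The lowest DMSO mouse lay above the highest sham mouse. The log2 fold change was 0.49 ± 0.09 (SE, edgeR adjusted p = 0.00325). Without any 1 of the 3 sham libraries, the adjusted p of Gas5 was between 0.0105 and 0.0221 and that of Snhg3 between 0.0141 and 0.0206, with the same direction.

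Snhg1, which carries 8 snoRNA loci, just missed the threshold. It had 200, 267 and 171 normalized counts in sham and 344, 311, 300 and 382 in DMSO mice. The groups did not overlap, the log2 fold change was 0.65 ± 0.16 (SE) and the edgeR adjusted p was 0.0108. Under DESeq2, the adjusted p was 0.00182, and 5 of the 8 alternative fits that left out no library placed it past the threshold.

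The other hosts did not pass. Snhg15 (0.63 ± 0.24, adjusted p = 0.0593) and Snhg5 (0.49 ± 0.19, adjusted p = 0.069) had log2 fold changes as large as that of Gas5 but overlapping groups. In Snhg5, the sham mouse S2 (171 normalized counts) exceeded the DMSO mouse A128 (148). The values were smaller for Snhg6 (0.20 ± 0.13, adjusted p = 0.243) and Snhg8 (0.16 ± 0.13, adjusted p = 0.359), both by edgeR. Snhg12 had 171, 226 and 185 normalized counts in sham and 169, 163, 180 and 239 in DMSO mice, so both groups covered the same range. Its log2 fold change was -0.05 ± 0.17 (SE, edgeR adjusted p = 0.838), and the sign turned with scaling to library size alone.

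**Figure D3:**
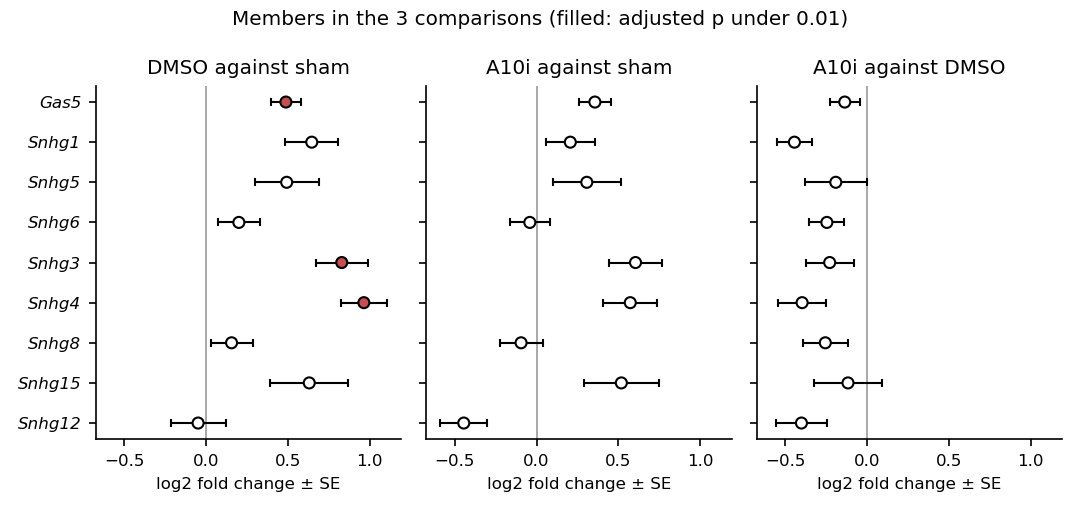
Log2 fold change ± SE of each host (edgeR) in the 3 comparisons, with filled points for an adjusted p under 0.01. Gas5, Snhg3 and Snhg4 are filled in DMSO against sham, none in A10i against sham, and all 9 points of A10i against DMSO lie below 0.

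In A10i mice with MI, 0 of the 9 hosts passed the threshold against sham, beside 13.7% of 16971 genes that were higher and 9.11% that were lower. DESeq2 called 1 of them, Gas5. An unadjusted edgeR p under 0.05 was found for 5 of the 9, near the share of all genes (48.3%). The same 3 sham mice served this comparison and the one above, so the values are given side by side and were not compared. The median log2 fold change of the hosts was 0.31, against -0.01 over all genes tested. Of the hosts, 4 were higher without overlap (Gas5, Snhg3, Snhg4 and Snhg15), where 24.8% of all genes were, and 1 was lower without overlap (Snhg12), where 23.5% of all genes were.

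The A10i mice had 124, 98.9, 97.1 and 125 normalized counts of Snhg3 and 166, 123, 128.8 and 114 of Snhg4. All 4 mice lay above the sham range in both genes. The log2 fold changes against sham were 0.61 ± 0.16 for Snhg3 (SE, edgeR adjusted p = 0.0143) and 0.57 ± 0.17 for Snhg4 (SE, edgeR adjusted p = 0.0196). Gas5 had 1156, 1013, 911 and 958 normalized counts, a log2 fold change of 0.36 ± 0.10 against sham (SE, edgeR adjusted p = 0.0145), and its adjusted p was between 0.00931 (without the A10i mouse A119) and 0.0753 (without the sham mouse S3) when 1 library was left out.

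Snhg12 differed in direction from these hosts. Its normalized counts in the A10i mice were 159, 148, 140 and 120, below each of the 3 sham mice. The log2 fold change was -0.44 ± 0.14 (SE, edgeR adjusted p = 0.0319), past 0.05 but not past 0.01. Snhg15 was at 0.52 ± 0.23 (adjusted p = 0.0998), Snhg5 at 0.31 ± 0.21 (adjusted p = 0.268) and Snhg1 at 0.21 ± 0.15 (adjusted p = 0.296), all by edgeR. Snhg6 and Snhg8 were at -0.04 ± 0.12 and -0.09 ± 0.13 (SE), and the sign of both turned with scaling to library size alone.

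Between the 2 infarcted groups, the effect of A10i, 0 of the 9 hosts passed the threshold, as did 0% of 16792 genes tested by edgeR, of which 2323 had an unadjusted p under 0.05. The fold changes of all 9 hosts were nonetheless below 0, from -0.44 to -0.12 on the log2 scale, where 49.3% of all genes were below 0. Their median was -0.24, against 0.00 over all genes tested. At an unadjusted p under 0.05, 4 of 9 hosts were lower in A10i, beside 6.73% of all genes. None of the 9 passed 0.01 under DESeq2 either, which called 104 genes higher and 123 lower. The direction held for each host in each of the 16 alternatives run. The 9 hosts and the alternatives all draw on the same mice, so they are not independent of each other.

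Snhg1 had the smallest p of the 9. Its normalized counts were 344, 311, 300 and 382 in the DMSO and 268, 248, 223 and 243 in the A10i mice. The groups did not overlap, as they did not for 2 of the 9 hosts and for 4.11% of all genes in this direction. The mean was 334 ± 37.0 (SD, n = 4) in DMSO and 245 ± 18.5 (SD, n = 4) in A10i mice, beside 213 ± 49.0 (SD, n = 3) in sham. The log2 fold change was -0.44 ± 0.11 (SE, unadjusted p = 0.00204, adjusted p = 0.128 by edgeR). Under DESeq2, the adjusted p was 0.0236, under 0.05 but not under 0.01. An exact permutation test of the mean log2 normalized count, two-sided, gave p = 0.0286, the smallest that 4 against 4 mice allow.

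Snhg12 was the other host without overlap, with 163 to 239 normalized counts in DMSO and 120 to 159 in A10i mice. Its log2 fold change was -0.40 ± 0.16 (SE, edgeR adjusted p = 0.291). Snhg4 had overlapping groups, with 160 to 197 in DMSO and 114 to 166 in A10i mice, where the A10i mouse A116 exceeded the DMSO mouse A128. Its log2 fold change was -0.40 ± 0.15 (SE, edgeR adjusted p = 0.269). The remaining hosts also overlapped and had log2 fold changes of -0.25 ± 0.14 (Snhg8), -0.24 ± 0.11 (Snhg6), -0.23 ± 0.15 (Snhg3), -0.19 ± 0.19 (Snhg5), -0.14 ± 0.09 (Gas5) and -0.12 ± 0.21 (Snhg15), with adjusted p between 0.345 and 0.852 by edgeR.

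Certain mice were high or low in several hosts. In the DMSO group, mouse A129 had the highest value of 6 of the 9 hosts and the lowest of 0, and mouse A128 the lowest of 5. In the A10i group, mouse A116 had the highest value of 6 hosts, and mouse A119 the lowest of 6. The median of the hosts' log2 CPM, each centred on its mean over the 11 mice, was 0.24 in A116, near the DMSO mice (0.18 to 0.35), and -0.19 to -0.08 in the other A10i mice. The sham mice lay between -0.41 and -0.13.

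Cell-type markers also differed between these mice. The summed normalized count of 9 macrophage and monocyte markers was 6451 to 6852 in sham, 11786 to 20503 in DMSO and 14049 to 28827 in A10i mice. That of 8 neutrophil markers was 44.9 to 77.5, 2016 to 4092 and 350 to 1305, that of 8 fibroblast markers 29414 to 31613, 48790 to 163495 and 123380 to 228101, and that of 10 cardiomyocyte markers 2123414 to 2191627, 1038609 to 1523260 and 1214167 to 1663526, in the same order of groups. In DMSO against sham (edgeR), 6 of 9 macrophage and monocyte, 7 of 7 neutrophil and 4 of 8 fibroblast markers tested were higher. Of the cardiomyocyte markers, 5 of 10 were lower, beside 12.9% of all genes that were higher and 9.6% that were lower. In A10i against sham, in the same order, 8 of 9, 6 of 7 and 7 of 8 were higher and 4 of 10 lower, beside 13.7% and 9.11%. Sums of 10 cell division genes were 1033 to 1681, 1458 to 6634 and 3157 to 8076. Mouse A129 in the DMSO group and mouse A116 in the A10i group had the highest sums of their group for the macrophage, neutrophil, fibroblast and cell division genes, as they did for 6 of the 9 hosts. No marker of any list was at 0 in all libraries. The part of these cells in the levels of the hosts was not tested.

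Endothelial markers (8 genes) summed to 26253.5 to 27443 in sham, 22130 to 25870 in DMSO and 25532 to 28353 in A10i mice, and mural cell markers (6 genes) to 37598 to 40064, 18188 to 24170 and 22149 to 26995. Lymphocyte markers were scarce, with sums of 27.2 to 110 over all mice, and 5 red blood cell transcripts spread from 5933 to 128443.5. Of the cell division genes, Ccnb1, Plk1 and Bub1, which act in mitosis, had the largest changes, with log2 fold changes of 3.21 ± 0.55, 3.17 ± 0.54 and 2.86 ± 0.50 in A10i against sham (edgeR adjusted p at most 0.00263). In all, 9 of these 10 genes passed the threshold as higher in A10i and 2 of 10 in DMSO mice against sham, beside 13.7% and 12.9% of all genes. All 10 were above 0 in both comparisons, with median log2 fold changes of 2.43 in A10i and 2.02 in DMSO mice. Between A10i and DMSO, 0 of the 10 passed. The mitochondrial share of counts was 21.5% to 22.2% in the sham mice, 14.8% to 18.6% in the DMSO mice and 15.7% to 17.9% in the A10i mice. Scaling to library size alone moved the median log2 fold change of all genes to 0.21 in DMSO and 0.18 in A10i against sham.

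Snhg3 and Snhg12, neighbours on chromosome 4 that point towards each other from opposite strands, changed differently after MI, which was noticed in these values and then expressed as a ratio within each library, free of any scaling. The log2 ratio of Snhg3 to Snhg12 counts was -1.34, -1.62 and -1.24 in the sham mice, -0.50, -0.11, -0.57 and -0.88 in the DMSO mice and -0.36, -0.58, -0.53 and 0.07 in the A10i mice. Every infarcted heart had a higher ratio than every sham heart. The mean ratio was higher by 0.88 in DMSO and by 1.04 in A10i than in sham mice on the log2 scale (exact permutation test, two-sided, p = 0.0286 each, the smallest that 4 against 3 mice allow). Because the pair was chosen for this difference in the same mice, these p-values are no independent test of it. Between A10i and DMSO mice the ratios overlapped and differed by 0.16 (exact permutation test, two-sided, p = 0.457).

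The ratio of Snhg1 to Gas5, both box C/D hosts, was also chosen after the values were seen, so its p-value is no independent test. Its log2 value was -1.76, -1.84, -1.72 and -1.62 in DMSO and -2.11, -2.03, -2.03 and -1.98 in A10i mice, without overlap, a difference of -0.30 (exact permutation test, two-sided, p = 0.0286). In sham mice it was -2.01, -1.68 and -2.06 and overlapped both groups. A further ratio, Snhg12 to Gas5, was likewise chosen after the values were seen, and the same limit holds for its p-values. Its log2 value overlapped between A10i and DMSO mice, with a difference of -0.25 (exact permutation test, two-sided, p = 0.2). Against sham it differed by -0.54 in DMSO and -0.80 in A10i mice (exact permutation test, two-sided, p = 0.0571 and 0.0286). Neither group overlapped with sham in this ratio.

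Some hosts share their place with other genes. Rcc1, which encodes the exchange factor of the GTPase Ran, is annotated over nearly all of Snhg3 on the same strand. Rcc1 had means of 222, 386 and 312 normalized counts in sham, DMSO and A10i mice, with a log2 fold change of 0.79 ± 0.17 in DMSO against sham (SE, edgeR adjusted p = 0.0059), close to that of Snhg3. Reads in the shared sequence cannot be assigned to either gene with certainty. Zbtb37, which overlaps Gas5 on the opposite strand, went the other way, with means of 739, 519 and 504 normalized counts and a log2 fold change of -0.51 ± 0.11 in DMSO against sham (SE, edgeR adjusted p = 0.00645). The strand setting of the counting is not given in the sources used here. Gm28285 (sense to Snhg4), Gm17300 (antisense to Snhg3) and Mcmdc2 (antisense to Snhg6) had 9 counts or fewer in every library.

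The snoRNAs themselves were hardly counted in these poly(A) libraries. Of the 30 rows, 27 were at 0 in all 11 libraries. All of these 27 overlap an exon of their host. How a read pair that overlaps 2 annotated genes was counted is not given in the sources used here. The part of this overlap in the counts of 0 was not tested. Snora73b had 4, 16 and 7 counts in the sham mice, 9, 15, 15 and 33 in the DMSO mice and 15, 11, 13 and 8 in the A10i mice, Snora73a 0 to 5, and Snord87 0 to 5. Snora73b and Snord87 are the 2 snoRNAs that overlap no exon of their host. Snora73a and Snora73b differ at 7 of 205 bases, so their counts of uniquely aligned reads are uncertain. A count of 0 in these libraries says nothing of the level of the mature snoRNA.

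Among other noncoding hosts of snoRNAs, Dancr and Snhg18 were higher after MI in DMSO mice. Of 11 listed, 9 were tested in DMSO against sham, of which 2 rose and 0 fell, beside 12.9% and 9.6% of all genes, with a median log2 fold change of 0.53. Dancr, known as an inhibitor of differentiation, rose from 42.7 ± 2.90 (SD, n = 3) to 104 ± 12.3 (SD, n = 4) normalized counts, a log2 fold change of 1.28 ± 0.18 (SE, edgeR adjusted p = 0.000756). It had 67.3 ± 14.4 (SD, n = 4) in A10i mice, a log2 fold change of -0.62 ± 0.18 against DMSO (SE, edgeR adjusted p = 0.184). Snhg18 rose in both groups against sham, with log2 fold changes of 1.05 ± 0.16 (DMSO) and 1.15 ± 0.16 (A10i). Snhg14, the imprinted host of large snoRNA clusters, fell in A10i against sham (-0.72 ± 0.14, edgeR adjusted p = 0.00354). Between A10i and DMSO, 0 of 9 passed and 8 of 9 were below 0, as were 49.3% of all genes.

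Many protein-coding hosts were higher after MI. Of 26, 13 rose and 0 fell in DMSO against sham, and 10 rose and 1 fell in A10i against sham, beside 12.9% and 13.7% of all genes that rose and 9.6% and 9.11% that fell. Their median log2 fold changes were 0.41 and 0.24. The ribosomal protein genes Rpl10, Rpl3 and Rpl12 had the largest, at 1.23 ± 0.12, 1.21 ± 0.17 and 0.98 ± 0.14 in DMSO against sham (SE, edgeR adjusted p at most 0.000889). Ribosomal protein genes have many processed copies, so their counts of unique alignments are uncertain. Between A10i and DMSO, 0 of 26 passed, 21 of 26 were below 0, and the median was -0.15.

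Several genes of the proteins that bind snoRNAs were higher after MI in DMSO mice. Of the 4 core proteins of box C/D particles, 2 rose in DMSO against sham, where 12.9% of all genes did, Nop58 (0.97 ± 0.12, edgeR adjusted p = 0.000343) and Fbl, the methyltransferase fibrillarin (0.75 ± 0.17, edgeR adjusted p = 0.0074). Of the 4 of box H/ACA particles, Nhp2 (1.03 ± 0.13) and Gar1 (0.61 ± 0.13) rose, both with an edgeR adjusted p of at most 0.00441. Nop58 had means of 552, 1086 and 708 normalized counts in sham, DMSO and A10i mice, and its log2 fold change of -0.61 ± 0.11 in A10i against DMSO did not pass (SE, edgeR adjusted p = 0.0707). In both particles 0 of 4 genes passed in A10i against sham, and all 4 of each were below 0 in A10i against DMSO, where 49.3% of all genes were. Of 11 assembly factors, Ruvbl1 (0.70 ± 0.15), Nolc1 (0.43 ± 0.10) and Tcof1 (0.40 ± 0.08) rose in DMSO against sham, where 12.9% of all genes did. Of the 11, 0 changed in A10i against sham, where 13.7% of all genes rose and 9.11% fell, and 10 of 11 were below 0 in A10i against DMSO, where 0 passed.

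Of 15 genes of nonsense-mediated decay, which acts on spliced host RNA, 1 rose and 2 fell in DMSO against sham, beside 12.9% and 9.6% of all genes. In A10i against sham, 0 of the 15 rose and 6 fell, beside 13.7% and 9.11% of all genes. The RNA helicase cofactor Upf2 was at -0.52 ± 0.08 and the kinase Smg1 at -0.49 ± 0.08 on the log2 scale in A10i against sham (SE, edgeR adjusted p at most 0.00128). Of 8 genes that control TOP mRNAs, 1 rose and 1 fell in DMSO against sham, near the 12.9% and 9.6% of all genes. The translation repressor Eif4ebp1 rose (0.58 ± 0.10, edgeR adjusted p = 0.00195) and Eif4ebp2 fell (-0.50 ± 0.07, edgeR adjusted p = 0.000917). In A10i against sham 0 of 8 rose and 2 fell, beside 13.7% and 9.11% of all genes. The 2 were Eif4ebp2 (-0.38 ± 0.06) and Rptor, the scaffold of mTORC1 (-0.29 ± 0.07). Neither list had a gene past the threshold between A10i and DMSO.

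**Figure D4:**
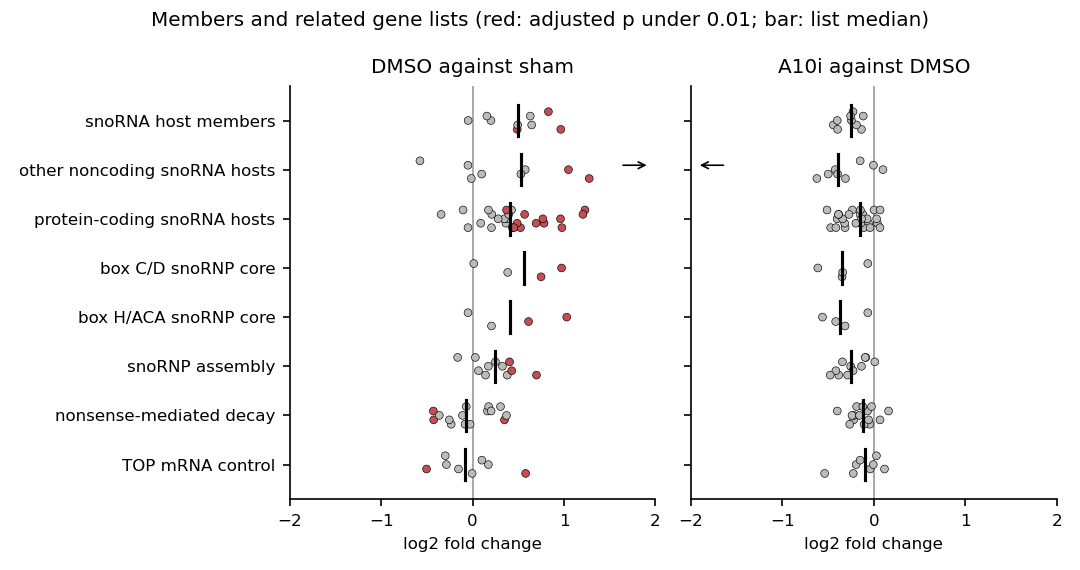
Log2 fold changes (edgeR) of the hosts and of 7 related gene lists, 1 point per gene, red for an adjusted p under 0.01, with the list median (bar) and the median of all genes tested (grey line). Snhg11, an arrow in both panels, lies off the scale at 4.88 in DMSO against sham and -3.23 in A10i against DMSO, and no point of the right panel is red.

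The genes whose profile was most like that of the hosts were found by the root mean square distance, over the 11 libraries, between their centred log2 CPM and the median of the hosts. Among 17471 other genes they were Edem2 (distance 0.05 on the log2 scale), Cers2 (0.07), H13 (0.07), Dennd4a (0.08) and the annotated pseudogene Impdh2-ps (0.08), where the median gene had 0.37. The hosts themselves lay between 0.08 (Gas5) and 0.32 (Snhg12) from their own median, so their profiles were not all alike. Edem2, which acts in the breakdown of misfolded proteins of the endoplasmic reticulum, had means of 239, 348 and 299 normalized counts in sham, DMSO and A10i mice. Over the 8 infarcted hearts alone, the closest were Ebna1bp2, Dkc1, Cers2, Ric8a and Gm5867, of which Cers2 was shared with the first list. Ebna1bp2 acts in ribosome biogenesis, and Dkc1 is the pseudouridine synthase of box H/ACA particles.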

How the data were processed

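Poly(A) RNA of 11 mouse hearts was sequenced as strand-specific read pairs. The authors aligned the reads to mm10 with GSNAP and deposited the counts of uniquely aligned read pairs per Ensembl gene from featureCounts (2.0.1), raw and without pooling. The deposited counts were used as they stood, without 92 rows of spike-in sequences, which held 14 to 55 counts per library (at most 0.000194% of the gene counts). Each sample is a separate mouse, grouped by its label. Symbols came from GENCODE M21, which names 55240 of 55421 gene rows. Snhg4 and Snhg16, unnamed there, were matched by the RefSeq coordinates of the same assembly, and Snhg7 was not matched.

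Only the libraries of the 2 groups compared entered a fit, with edgeR 4.0.16 (filterByExpr, TMM, robust quasi-likelihood test, two-sided) in R 4.3.3 and Benjamini-Hochberg adjustment over all genes tested, with a threshold of 0.01. The method was tested on simulated data. Log2 CPM used a prior count of 2. Alternatives were DESeq2 1.42.0, limma-voom (limma 3.58.1), other normalizations, other filters (none, or 10 counts in every library), a joint fit of the 11 libraries, 0.05 as the threshold, and fits that each left out 1 library.

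The hosts and gene lists were chosen with earlier results of these data known. Named from each related list were up to 3 genes past the threshold with the largest absolute log2 fold change, and the 5 genes most like the hosts. A gene that this rule names is not reported here. Rcc1, Zbtb37, the other overlapping genes, Snhg11 and the ratios of hosts were chosen after their values were seen. The depth allows a counting error of a few percent for Gas5, whereas for Snhg3, Snhg4 and Snhg15 counting error alone is of the order of the spread between mice.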

Additional observations from a re-analysis of the deposited data

Results flagged for a closer look

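Snhg5 in the A10i mouse A116 stood apart from its group. It had 234 normalized counts there, whereas the other 3 A10i mice had 146 to 155. The gap to the nearest mouse was 0.891 of the whole range of the group, above Dixon's 95% critical value for 4 samples. Of 18 groups of 4 examined for the 9 hosts, this was the 1 flagged, and chance alone flags about 1 in 20. Without this mouse, the log2 fold change of Snhg5 in A10i against DMSO was -0.38 (edgeR adjusted p = 0.322). The same mouse had the highest sums of macrophage, neutrophil, fibroblast and cell division genes in the A10i group. Their part in the value was not tested.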

How the results depend on the processing

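The count of hosts past the threshold in A10i against DMSO was 0 under every alternative, and at 0.05 in the edgeR fit reported. Under DESeq2, Snhg1 was under 0.05 (adjusted p = 0.0236). In DMSO against sham it was 3 to 4 under the other fits and at 0.05, and 1 to 3 when 1 library was left out. It was 1 without sham S1 and 1 without sham S3, where Snhg4 remained. In A10i against sham it was 0 in the fit reported, 1 with DESeq2, 1 without the filter on low counts (Gas5 in both), 3 with library size alone (Gas5, Snhg3 and Snhg4) and 4 at a threshold of 0.05 (with Snhg12 added). It was 0 to 1 when 1 library was left out, and 1 without A10i mouse A119. Of 414 single values of the hosts under the alternatives, 390 kept direction and side of the threshold, 12 passed it newly, 6 no longer passed it and 6 changed sign. The sign of Snhg12 in DMSO against sham changed with library size alone (0.17), without DMSO mouse A127 (0.02) and without sham mouse S2, with -0.184 to 0.0716 over the fits that left out 1 library. In A10i against sham it changed for Snhg6 with library size alone (0.15) and without sham S2 (-0.144 to 0.0457 over the fits that left out 1 library), and for Snhg8 with library size alone (0.0918). Library size alone does not remove the shift of all genes given in the report, and leaving out a sham library leaves 2 in that group. The cause was not tested for any of these changes. Snhg15, with 28 to 85 counts, is the host where depth limits most. No paired analysis was possible because the groups share no replicate numbers.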

Other observations

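Snhg11, a noncoding host better known from neurons and chosen here after its values were seen, varied most among the other hosts. It had 3.1 to 4.8 normalized counts in the sham mice, 79.8, 11.1, 350.4 and 54.2 in the DMSO mice, and 8.1, 17.8, 8.4 and 18.4 in the A10i mice. The DMSO mouse A128 had the highest value, and the edgeR adjusted p of the gene was 0.015 in DMSO against sham and 0.18 in A10i against DMSO. Snhg9 had at most 6.0 normalized counts in any mouse.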
